A study of Mus musculus with 6 samples.

Results

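The 39 genes described here encode the contractile apparatus of striated muscle, its calcium-handling proteins and its creatine kinases. They were chosen by name as isoforms typical of fast or slow fibres, as isoforms typical of developing muscle, or as proteins shared by all fibres, and the rule used no difference between the groups. All 39 were found among the 18193 genes with a probe set annotated to 1 gene only, and each was read from its brightest such probe set. They fall into 14 fast-fibre, 10 slow-fibre, 3 developmental and 12 shared genes. Affymetrix mouse arrays were hybridized with RNA of tongue tissue of adult C57BL/6J mice, an inbred laboratory strain. Tongues of 3 non-treated control mice were compared with tongues of 3 mice that drank 4-nitroquinoline 1-oxide (4NQO), a DNA-damaging carcinogen used to induce tongue lesions, at 100 µg/ml for 8 weeks, with 1 array per tongue. The comparison asks whether 4NQO exposure was accompanied by a change in the expression of these genes.

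The sarcomere is the contractile unit of striated muscle, in which myosin thick filaments pull on actin thin filaments that are anchored in the Z-disc. Most of its proteins come in isoforms encoded by separate genes, so that fast-contracting and slow-contracting fibres, and fibres still developing, carry different sets. The tongue body is largely skeletal muscle, and in rodents its fibres are mostly of fast types. Tongue tissue also holds epithelium, connective tissue, vessels, nerve, fat and salivary glands. A lower signal from fewer muscle fibres and one from less RNA per fibre therefore cannot be told apart in these values.

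The defining genes of skeletal muscle were bright on every array. The log2 signal of Ckm, the muscle creatine kinase, lay at 13.79, 13.88 and 13.55 in the control tongues and at 13.60, 13.61 and 13.68 in the 4NQO tongues, where the brightest probe set of an array reached 14.1 to 14.3. Acta1, the skeletal muscle actin, lay at 13.86, 13.91 and 13.67 in control and at 13.68, 13.59 and 13.74 in 4NQO tongues. The labelled tissue thus carried its muscle genes in both groups.

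Control tongue 3 and 4NQO tongue 2 stood apart from the other arrays. The 5′ and 3′ probe sets of Gapdh show how far labelling reached along a transcript, and the log2 difference between the 3′ and the 5′ end was 1.67 in control tongue 3 and 1.07 in 4NQO tongue 2, against 0.086 to 0.47 in the other arrays. The same difference for beta-actin ranged from 0.55 to 1.12 and did not single out these arrays. Control tongue 3 gave the lowest of the control values in 34 of the 39 genes (87.2%), where 31.0% of all genes did so. 4NQO tongue 2 gave the lowest of the 4NQO values in 30 of 39 (76.9%), where 41.0% of all genes did so. The median deviation of the 39 genes from their control means was 0.14, 0.08 and −0.26 in control tongues 1 to 3 and −0.11, −0.36 and −0.09 in 4NQO tongues 1 to 3. The sarcomere genes were therefore low together on the arrays with the largest Gapdh differences, 1 in each group, and the part of RNA quality in this was not tested. Results that rest on these arrays are also given without both, an alternative chosen after the values were seen, which leaves 2 tongues per group.

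**Figure D1:**
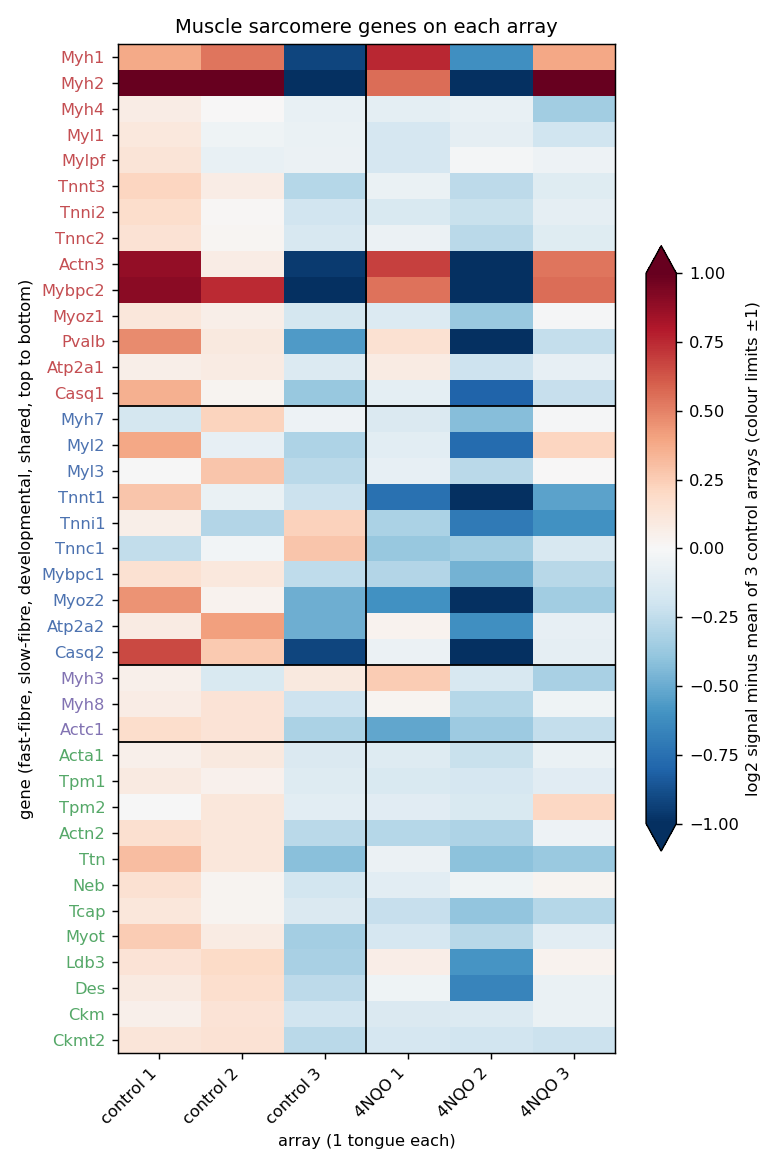
Log2 signal of each of the 39 sarcomere genes (rows, coloured by class) on each of the 6 arrays (columns), shown as the difference from the gene's mean over the 3 control arrays, with the colour scale limited to ±1. Control 3 is the bluest of the control columns and 4NQO 2 the bluest of the 4NQO columns, with median deviations of −0.26 and −0.36.

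No sarcomere gene passed the test for a difference between 4NQO and control tongues. With limma and Benjamini-Hochberg adjustment over all 18193 genes, 0 of 39 were higher and 0 of 39 were lower at an adjusted p under 0.05, where 0.126% of all genes passed as higher (23 genes) and 0.0055% as lower (1 gene). The significance analysis of microarrays (SAM), a procedure that the paper's methods name, also called 0 of the 39 in either direction, and called 83 genes as higher and 0 as lower over the whole array. At an unadjusted limma p under 0.05, 6 of 39 (15.4%) were lower and 0 were higher, against 3.74% of all genes lower and 6.68% higher. The 6 were Tnnt1, Tcap, Tnni1, Mybpc1, Myoz2 and Actc1. Their number depended on single tongues and was 17 without control tongue 3 (where 4.78% of all genes were lower), 3 without 4NQO tongue 1, 2 without control tongue 2 and 1 without control tongue 1 or 4NQO tongue 2, where 3.88%, 2.75%, 3.32% and 2.31% of all genes were lower. All 4NQO values lay below all control values in 6 of 39 genes (15.4%; 7.18% of all genes), namely Myh4, Myl1, Tnnt1, Tnni1, Mybpc1 and Tcap, and all lay above in 0 of 39 (9.59% of all genes). With 3 tongues per group an exact permutation test of a single gene cannot give a two-sided p under 0.1.

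Although no gene passed, the mean of the 4NQO tongues was below that of the control tongues in 38 of the 39, the exception being Myh1. Over the 39 genes the median log2 difference was −0.18, over the fast-fibre genes −0.15, over the slow-fibre genes −0.32, over the developmental genes −0.10 and over the shared genes −0.17. The median over all genes tested was −0.01, with 52.3% of genes lower on average, and over the genes brighter than the median gene it was 0.00, with 49.6% lower. Single tongues moved these medians. When each was left out in turn, the median ran from −0.094 (without 4NQO tongue 2) to −0.32 (without control tongue 3) over the 39 genes and from −0.055 (without control tongue 1) to −0.27 (without control tongue 3) over the fast-fibre genes. Over the slow-fibre genes it ran from −0.17 (without 4NQO tongue 2) to −0.45 (without control tongue 3), and over the shared genes from −0.11 (without control tongue 1) to −0.33 (without control tongue 3). The sarcomere genes are measured on the same 6 arrays and 31 of them were lower when 4NQO tongue 2 was left out, so that their shared direction is a description of these tongues. Without both arrays of high Gapdh difference, the median was −0.22 over the 39 genes, −0.22 over the fast-fibre, −0.30 over the slow-fibre and −0.20 over the shared genes, and 36 of the 39 means were lower. The level of these differences depended on scaling. With each array centred on the median of all its probe sets, the median over the 39 genes was −0.11 and 34 means were lower, while the median over all genes was 0.06.

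**Figure D2:**
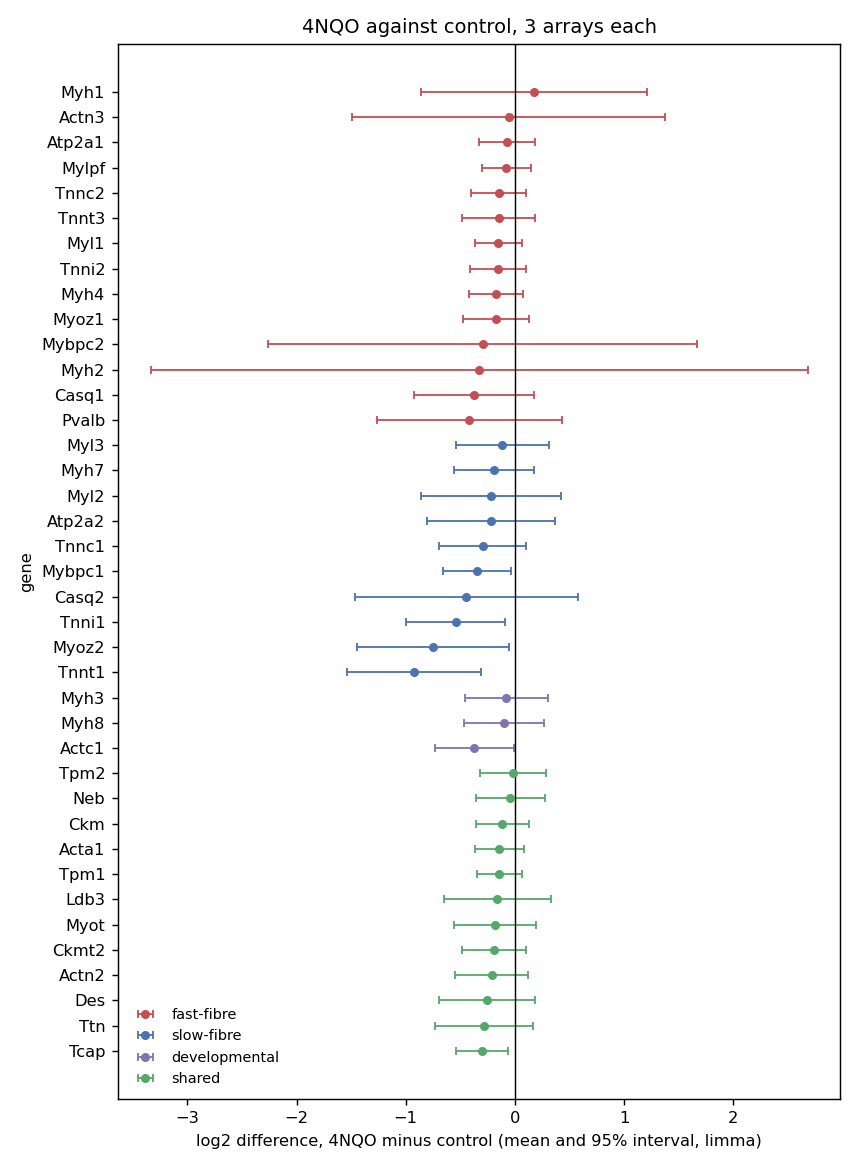
Log2 difference between the means of 3 4NQO and 3 control tongues for each sarcomere gene, with its 95% confidence interval from limma (bars), grouped by class and ordered by size within it. Nearly all points lie left of 0, the intervals of Tnnt1, Tnni1, Mybpc1, Myoz2, Actc1 and Tcap do not reach it, and none of the 39 passed after adjustment over all genes.

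Among the genes of fast fibres, none of 14 had an unadjusted limma p under 0.05, where 3.74% of all genes were lower and 6.68% higher. The differences ran from −0.42 for Pvalb to 0.18 for Myh1. The fast myosin heavy chains, the motor proteins of the thick filament, are neighbours in 1 gene cluster and differed in how steady they were. Myh4, the heavy chain of the fastest (IIb) fibres, lay at 13.57, 13.50 and 13.42 in the control tongues and at 13.40, 13.42 and 13.15 in the 4NQO tongues. The groups touched at the second decimal but did not overlap, and 4NQO tongue 3 was the lowest. The log2 difference of Myh4 was −0.17 (95% interval −0.42 to 0.07; limma adjusted p = 0.609). This probe set lies near the top of the arrays' range, and a dimmer one of Myh4, with overlapping groups, gave −1.11.

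Myh1, the heavy chain of IIx fibres, lay at 12.01, 12.17 and 10.71 in the control tongues and at 12.39, 11.02 and 12.02 in the 4NQO tongues, so that the lowest value of each group came from the array with the high Gapdh difference. Its log2 difference was 0.18 ± 0.45 (SE), with a limma adjusted p of 0.915. Myh2, the heavy chain of IIa fibres, spread furthest of the 39. It lay at 9.36, 9.01 and 5.43 in the control tongues and at 8.49, 5.01 and 9.31 in the 4NQO tongues, a range of 4.35 on the log2 scale in which 1 tongue of each group stood more than 3 below the others. The log2 difference of −0.33 had a 95% interval from −3.34 to 2.68, so that a change of several fold in either direction was not detectable for Myh2 in these tongues.

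The fast light chains, which stabilise and tune the myosin neck, were bright and steady. Myl1, the fast essential light chain, lay at 13.26, 13.11 and 13.08 in control and 12.98, 13.06 and 12.95 in 4NQO tongues, with every 4NQO value below every control value. The log2 difference of Myl1 was −0.15 ± 0.09 (SE; limma adjusted p = 0.610). Mylpf, the fast regulatory light chain, differed by −0.08 and its groups overlapped.

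The fast troponins, which make the thin filament respond to calcium, differed by nearly the same amount. Tnnt3, the tropomyosin-binding subunit, lay at 12.57, 12.42 and 12.06 in control and 12.28, 12.09 and 12.23 in 4NQO tongues (log2 difference −0.15). Tnni2, the inhibitory subunit, lay at 13.78, 13.61 and 13.41 in control and 13.45, 13.37 and 13.51 in 4NQO tongues (−0.16), and Tnnc2, the calcium-binding subunit, at 13.90, 13.78 and 13.59 in control and 13.70, 13.49 and 13.63 in 4NQO tongues (−0.15). In all of the fast troponins the groups overlapped, and the limma adjusted p lay between 0.659 and 0.737.

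The other fast-fibre genes were calcium-handling proteins, a calcium buffer and parts of the thick filament and Z-disc. Atp2a1, the calcium pump of fast sarcoplasmic reticulum, lay at 13.68, 13.71 and 13.49 in control and 13.71, 13.42 and 13.54 in 4NQO tongues, a log2 difference of −0.07. Casq1, which stores calcium in that compartment, lay at 11.17, 10.84 and 10.43 in control and 10.71, 10.01 and 10.58 in 4NQO tongues (−0.37 ± 0.24, SE). Pvalb, the cytosolic calcium buffer parvalbumin, lay at 12.38, 12.00 and 11.33 in control and 12.06, 10.73 and 11.67 in 4NQO tongues (−0.42 ± 0.37, SE). For both Casq1 and Pvalb the lowest value of each group came from the arrays named above, and the difference of Casq1 was −0.16 without 4NQO tongue 2 and −0.57 without control tongue 3. Myoz1, a Z-disc protein that binds calcineurin, differed by −0.17. Actn3, the fast alpha-actinin that cross-links actin at the Z-disc, differed by −0.06, and Mybpc2, the fast myosin-binding protein C, by −0.30. Their intervals, from −1.49 to 1.37 for Actn3 and from −2.26 to 1.67 for Mybpc2, were among the widest of the 39.

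The 10 genes classed by name as slow-fibre held 4 of the 6 lowest p-values. Of the 10, 4 were lower at an unadjusted limma p under 0.05 (40%; 3.74% of all genes), and 3 did not overlap between the groups, with 4NQO lower (30%; 7.18% of all genes). Another 4 (Myh7, Myl2, Myl3 and Tnnc1) lay below the median of all genes on every array, a signal at which expression cannot be told from background. The 6 slow-fibre genes that reached that level on at least 1 array were Tnnt1, Tnni1, Mybpc1, Myoz2, Atp2a2 and Casq2. The slow heavy and light chains were dim, and whether the signal of these 6 genes came from slow fibres was not tested.

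Tnnt1, the slow troponin T, had the largest difference and the smallest p of the 39. Its log2 signal was 7.58, 7.23 and 7.08 in the control tongues and 6.55, 5.81 and 6.77 in the 4NQO tongues. Every 4NQO value lay below every control value, with 4NQO tongue 2 lowest. The mean was 7.30 ± 0.25 in control and 6.38 ± 0.50 in 4NQO tongues (SD, n = 3 each), a log2 difference of −0.92 (95% interval −1.54 to −0.31), or 1.90-fold lower with 4NQO. The limma adjusted p was 0.280, so that Tnnt1 did not pass. Without both arrays of high Gapdh difference the log2 difference was −0.75.

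Tnni1, the slow troponin I, showed the same order of the groups as Tnnt1. It lay at 6.12, 5.76 and 6.29 in the control tongues and at 5.74, 5.35 and 5.45 in the 4NQO tongues, where the highest 4NQO value was 0.02 below the lowest control value. The signal was close to the median of all genes, which lay between 6.06 and 6.23 on the 6 arrays, and only control tongues 1 and 3 were above it. The mean log2 difference was −0.54 ± 0.20 (SE), with a limma adjusted p of 0.398. Unlike most of the genes, Tnni1 was highest among the controls in tongue 3. Without both arrays the log2 difference of Tnni1 was −0.34, and its unadjusted limma p was no longer under 0.05.

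Mybpc1, the slow myosin-binding protein C, lay at 12.16, 12.11 and 11.75 in control and 11.71, 11.53 and 11.73 in 4NQO tongues. Control tongue 3, the lowest control, lay 0.02 above the highest 4NQO value. The log2 difference was −0.35 ± 0.14 (SE; limma adjusted p = 0.436). Without both arrays it was −0.41. Myoz2, the Z-disc myozenin of slow fibres and heart, lay at 10.30, 9.88 and 9.36 in control and 9.24, 8.54 and 9.50 in 4NQO tongues. The groups overlapped, since control tongue 3 was lower than 4NQO tongue 3. The log2 difference of Myoz2 was −0.75 ± 0.30 (SE; limma adjusted p = 0.446), and the order of the tongues followed that of the Gapdh differences within each group. The difference of Myoz2 was −0.47 without 4NQO tongue 2 alone, −0.99 without control tongue 3 alone and −0.72 without both.

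The remaining slow-fibre genes overlapped between the groups. Casq2, the calsequestrin of slow fibres and heart, lay at 10.52, 10.12 and 8.94 in control and 9.80, 8.67 and 9.76 in 4NQO tongues, a log2 difference of −0.45 ± 0.44 (SE). Atp2a2, the calcium pump of slow fibres, heart and non-muscle cells, lay at 11.07, 11.40 and 10.51 in control and 11.03, 10.38 and 10.91 in 4NQO tongues (−0.22 ± 0.25, SE). Both were lowest in control tongue 3 and 4NQO tongue 2. Of the dim genes, Myh7, the slow myosin heavy chain, averaged 3.24 ± 0.20 in control and 3.04 ± 0.21 in 4NQO tongues (SD, n = 3 each). Myl2 and Myl3, the slow regulatory and essential light chains, differed by −0.22 and −0.11, and Tnnc1, the slow troponin C, by −0.29. At this signal the arrays do not show whether the defining slow heavy and light chains were expressed.

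**Figure D3:**
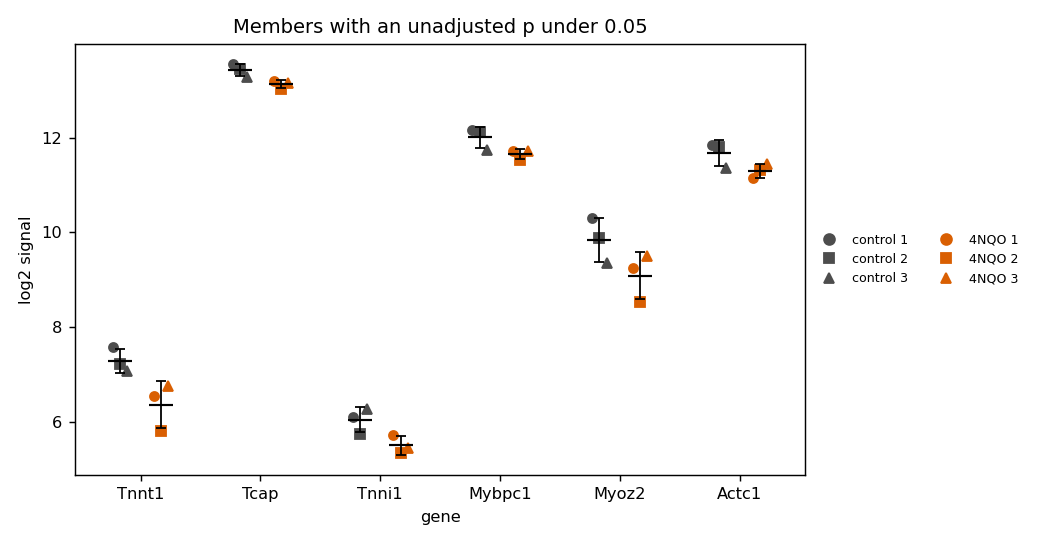
Log2 signal on each array (points, control grey and 4NQO orange, shape by tongue number) of the 6 sarcomere genes with an unadjusted limma p under 0.05, with the mean and SD of 3 tongues per group (lines). The groups do not overlap in Tnnt1, Tcap, Tnni1 and Mybpc1 and overlap in Myoz2 and Actc1, and the differences run from −0.92 for Tnnt1 to −0.30 for Tcap.

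Of the 6 genes with an unadjusted limma p under 0.05, Tcap had no promoter in the table used. The sequences before the start sites of the other 5, which are slow-fibre or developmental genes, are shown. They are the 250 bases before the start from the RefSeq promoter table of the GRCm38.p6 assembly, written 5′ to 3′ on the gene's strand. A script searched both strands for the E-box CANNTG bound by myogenic factors, the MEF2 core CTANNNNTAG, the TATA box TATAAA, the MCAT element CATTCC and the CArG box of serum response factor, with overlaps between motifs allowed. Bases of any match are in capitals.
Tnnt1: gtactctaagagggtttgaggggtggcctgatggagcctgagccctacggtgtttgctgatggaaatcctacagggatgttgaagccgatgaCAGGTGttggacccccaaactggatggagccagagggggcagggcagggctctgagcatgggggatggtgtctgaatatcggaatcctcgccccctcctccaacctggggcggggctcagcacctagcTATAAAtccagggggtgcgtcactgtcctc
Tnni1: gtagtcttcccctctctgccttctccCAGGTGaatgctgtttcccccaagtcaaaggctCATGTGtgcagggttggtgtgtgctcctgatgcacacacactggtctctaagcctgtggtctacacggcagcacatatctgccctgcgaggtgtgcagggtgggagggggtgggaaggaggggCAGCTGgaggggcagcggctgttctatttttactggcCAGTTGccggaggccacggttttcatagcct
Mybpc1: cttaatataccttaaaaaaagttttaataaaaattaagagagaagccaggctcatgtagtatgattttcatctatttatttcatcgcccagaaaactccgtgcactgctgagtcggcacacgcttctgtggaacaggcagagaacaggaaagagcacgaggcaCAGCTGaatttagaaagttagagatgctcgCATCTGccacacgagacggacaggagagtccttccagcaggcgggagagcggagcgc
Myoz2: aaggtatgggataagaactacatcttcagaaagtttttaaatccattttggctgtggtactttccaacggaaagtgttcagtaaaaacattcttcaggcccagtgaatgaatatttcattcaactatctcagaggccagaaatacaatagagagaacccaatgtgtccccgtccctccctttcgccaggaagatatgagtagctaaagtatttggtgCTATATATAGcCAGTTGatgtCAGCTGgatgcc
Actc1: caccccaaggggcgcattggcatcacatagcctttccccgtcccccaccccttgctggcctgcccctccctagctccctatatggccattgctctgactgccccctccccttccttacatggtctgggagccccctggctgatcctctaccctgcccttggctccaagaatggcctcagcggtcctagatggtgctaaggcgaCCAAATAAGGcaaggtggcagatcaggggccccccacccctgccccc

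The matches in these windows differed from gene to gene. The Tnnt1 window, at chr7:4515976-4516225 on the minus strand, held TATAAA 30 to 25 bases before the start and 1 E-box. The Tnni1 window, at chr1:135799171-135799420 on the plus strand, held 4 E-boxes. Tnni1 has a second promoter in the table, with 2 E-boxes, and the one listed first is shown. The Mybpc1 window, at chr10:88605153-88605402 on the minus strand, held 2 E-boxes. The Myoz2 window, at chr3:123034988-123035237 on the minus strand, held the MEF2 core 33 to 24 bases before the start and 2 E-boxes nearer to it. The Actc1 window, at chr2:114052876-114053125 on the minus strand, held a CArG box 47 to 38 bases before the start. No motif was shared by all 5 windows. The window of Myh2, picked as the gene with the widest range over arrays, held none of these motifs and is not shown.

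The table held no promoter of Tnnt3, Tnni2, Actn3, Myoz1, Atp2a2, Neb, Tcap and Myot. The other 31 genes had 36 promoters, since 5 genes had several. An E-box was found in 30 of the 36 (83.3%; 66.2% of all 32851 promoters in the table), the MCAT element in 9 (25%; 12.6% of all), TATAAA in 8 (22.2%; 12.4%), the CArG box in 6 (16.7%; 1.47%) and the MEF2 core in 3 (8.33%; 3.20%). A match is a run of letters and not a bound site, and these shares were not tested.

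Of the developmental genes, only Actc1 gave a signal above the median of all genes. Actc1, the actin of heart and of embryonic and regenerating skeletal muscle, lay at 11.85, 11.81 and 11.36 in control and 11.15, 11.31 and 11.43 in 4NQO tongues. The lowest control value lay below the highest 4NQO value, so that the groups overlapped. The log2 difference was −0.37 ± 0.16 (SE; limma adjusted p = 0.467). It was −0.54 without both arrays of high Gapdh difference. Myh3 and Myh8, the embryonic and perinatal heavy chains, averaged 3.06 ± 0.13 and 4.04 ± 0.19 in control tongues (SD, n = 3 each) and lay below the median of all genes on every array. Their log2 differences were −0.08 and −0.10.

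The 12 shared genes serve all striated fibres. Only Tcap among them was lower at an unadjusted limma p under 0.05 (8.33%; 3.74% of all genes), and 0 were higher (6.68% of all genes). Tcap, the Z-disc protein that binds the end of titin, lay at 13.54, 13.45 and 13.28 in the control tongues and at 13.20, 13.03 and 13.14 in the 4NQO tongues. Every 4NQO value was below every control value, and the gap between the groups was 0.08. The log2 difference of Tcap was −0.30 (95% interval −0.54 to −0.06; limma adjusted p = 0.371), or 1.23-fold. The difference of Tcap was −0.33 without both arrays.

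The thin filament genes lay close to 0. Acta1 differed by −0.14, and the tropomyosins Tpm1 and Tpm2, which cover the myosin sites on actin, by −0.14 and −0.02. Neb, the nebulin that sets thin filament length, lay at 9.20, 9.08 and 8.87 in control and 8.95, 9.01 and 9.08 in 4NQO tongues, a log2 difference of −0.04 with a 95% interval from −0.35 to 0.27. Ttn, the giant titin that spans from Z-disc to M-band, lay at 12.79, 12.59 and 12.06 in control and 12.42, 12.07 and 12.11 in 4NQO tongues (−0.28 ± 0.19, SE), and its groups overlapped.

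The genes of the Z-disc and the cytoskeleton around it overlapped between the groups as well. Actn2, the alpha-actinin of all striated fibres, differed by −0.21, Myot, which binds alpha-actinin and filamin, by −0.18, and Ldb3, a PDZ protein of the Z-disc, by −0.16. Des, the muscle intermediate filament desmin, lay at 12.51, 12.59 and 12.16 in control and 12.38, 11.76 and 12.35 in 4NQO tongues, with 4NQO tongue 2 lowest and a log2 difference of −0.26. The creatine kinases Ckm (cytosolic) and Ckmt2 (mitochondrial) differed by −0.12 and −0.19. In Ckmt2, control tongue 3 at 12.74 lay below all 4NQO values, and the other control tongues, at 13.14 and 13.16, lay above them.

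A range over the 6 arrays of more than 1.5 was seen in 8 of the 39 genes, namely Myh2, Mybpc2, Actn3, Casq2, Tnnt1, Myoz2, Myh1 and Pvalb. In Mybpc2 the log2 signal was 10.43, 10.27 and 7.88 in the control and 10.07, 7.53 and 10.09 in the 4NQO tongues. In Actn3 it was 9.58, 8.78 and 7.74 in control and 9.39, 7.30 and 9.24 in 4NQO tongues. Control tongue 3 and 4NQO tongue 2 were the lowest of their groups in all 8. The groups differed by more in Tnnt1 and Myoz2 than in the other 6. Without both arrays, the log2 difference was −0.28 for Myh2, −0.27 for Mybpc2, 0.13 for Actn3, −0.54 for Casq2, 0.11 for Myh1 and −0.33 for Pvalb. These values hide moves in opposite directions. Without 4NQO tongue 2 alone, the difference was −0.076 for Casq2, −0.041 for Pvalb, 0.61 for Actn3 and 0.57 for Myh1. Without control tongue 3 alone, it was −0.91 for Casq2, −0.70 for Pvalb, −0.54 for Actn3 and −0.28 for Myh1. The direction of Myh2 and Mybpc2 turned when 4NQO tongue 2 alone was left out, to 0.97 and 0.55, and their difference was −1.58 and −1.12 when control tongue 3 alone was left out.

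**Figure D4:**
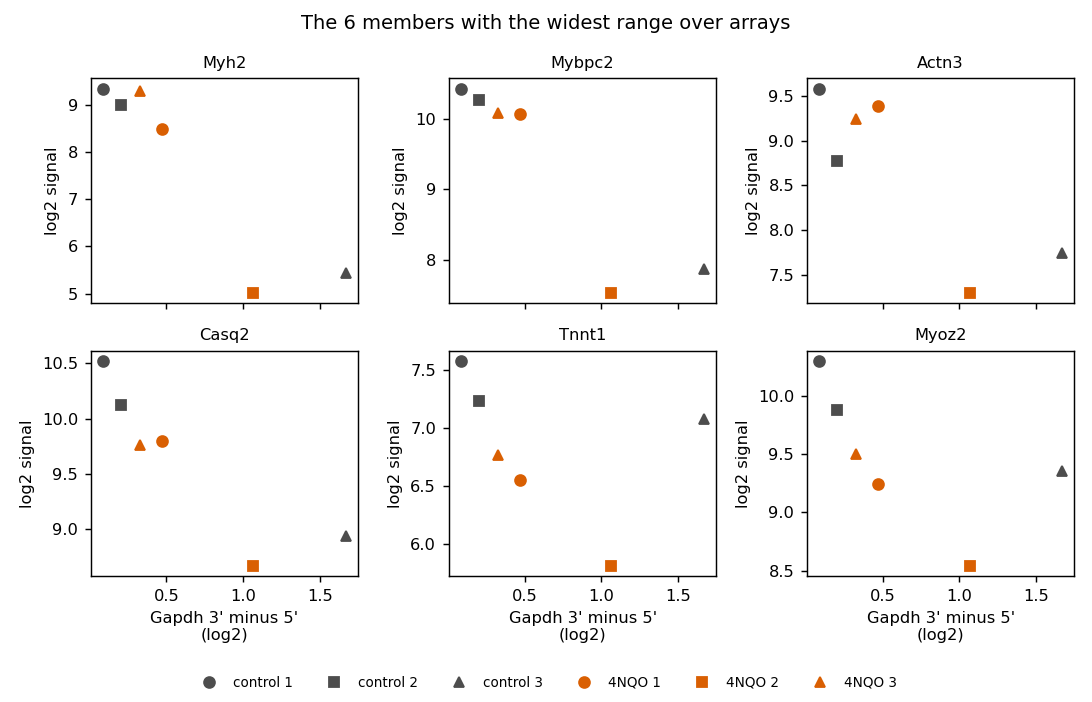
Log2 signal on each array (y axes) of the 6 sarcomere genes with the widest range, against the log2 difference between the 3′ and 5′ Gapdh probe sets of the same array (x axes), with control tongues in grey, 4NQO tongues in orange and shape by tongue number. The arrays at 1.07 and 1.67 carry the lowest values of their group in all 6 panels.

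Fast and slow isoforms of the same protein were compared as the difference between their own log2 differences, with no level of one probe set against another and no test. For alpha-actinin the partner of the fast isoform was Actn2, which is classed as shared and not as slow. Most fast isoforms were read at a brighter signal than their partners, some of them near the top of the arrays' range. The part of signal level in the shifts was not tested. In 9 of the 11 pairs the values of the 4NQO and control arrays overlapped. The exceptions were the troponin T and the myozenin pairs. Over all single genes the groups did not overlap in 9.59% with 4NQO higher and in 7.18% with 4NQO lower. No such share was computed for pairs. For Tnnt3 minus Tnnt1 the arrays, set to a control mean of 0, gave −0.06, 0.13 and −0.07 in control and 0.68, 1.23 and 0.41 in 4NQO tongues, a shift of 0.77 towards the fast isoform. For Myoz1 minus Myoz2 they gave −0.34, 0.02 and 0.31 in control and 0.46, 0.94 and 0.33 in 4NQO tongues, a shift of 0.58. The gap between the groups was 0.28 in the troponin T pair and 0.02 in the myozenin pair. Without both arrays of high Gapdh difference the shifts were 0.51 and 0.55.

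The troponin I pair shifted in the same direction but overlapped. Tnni2 minus Tnni1 gave 0.12, 0.31 and −0.42 in control and 0.16, 0.48 and 0.51 in 4NQO tongues, a shift of 0.39. Troponin C shifted by 0.14, the calcium pump by 0.15, alpha-actinin (Actn3 minus Actn2) by 0.16 and the regulatory light chain by 0.14. Calsequestrin, myosin-binding protein C and the heavy chain pair Myh4 minus Myh7 shifted by 0.07, 0.05 and 0.02, and the essential light chain by −0.04. With the mean of all probe sets of a gene, the shift was −0.44 for the heavy chains, 0.41 for myosin-binding protein C and −0.23 for the essential light chain. The calcium pump pair also fell below 0 with this setting, with Atp2a1 at −0.069 and Atp2a2 at 0.00081. With the brightest probe sets the shift was above 0 in 10 of the 11 pairs, and in fewer with the mean of all probe sets. Several pairs include a dim slow isoform, and the tally was not tested.

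Most of the genes, 26 of 39, had a single probe set, and 13 had several. When each of the 69 probe sets was fitted on its own among the 34945 of 1 gene, an alternative chosen after the values were seen, 0 of 69 passed the limma adjusted threshold. The mean was lower with 4NQO in 61 of 69, where it was lower in 19352 of all 34945. At an unadjusted limma p under 0.05, 10 were lower (14.5%, against 4.54% of all probe sets). In the other direction 2 were higher, where 2032 of all 34945 were. The probe sets of 1 gene did not always give the same size. A dimmer probe set of Myh4 lay at 10.45, 10.58 and 8.93 in control and 8.60, 8.85 and 9.20 in 4NQO tongues, a log2 difference of −1.11, where its bright probe set, near the top of the range, gave −0.17. Both other probe sets of Mybpc1 gave −0.90 and −0.86 against −0.35, and those of Ttn ran down to −1.25 against −0.28. A second probe set of Ckm gave −0.52 against −0.12.

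Both probe sets that were higher belonged to genes also active outside striated muscle, and which cells gave their signal was not tested. For Atp2a2 a probe set gave 10.57, 10.59 and 10.32 in control and 11.14, 10.78 and 10.97 in 4NQO tongues, a log2 difference of 0.47, while its brightest gave −0.22. For Tpm1 a probe set gave 8.76, 9.07 and 9.11 in control and 9.23, 9.65 and 9.48 in 4NQO tongues, a difference of 0.48, while its brightest gave −0.14. In both the 4NQO values lay above all control values. Myh1 gave −0.45 from the probe set without a suffix and 0.18 from its brightest, whose suffix marks probes that can also bind related transcripts, such as those of neighbouring heavy chain genes. The direction of Myh1 thus differed between its probe sets.

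Other muscle genes were lower on average too, and none passed the adjusted threshold. Of 42 measured genes of the sarcomere and Z-disc outside the 39, 38 had a lower mean with 4NQO, against 52.3% of all genes. Their median log2 difference was −0.31. At an unadjusted limma p under 0.05, 7 were lower (16.7%; 3.74% of all genes) and 1 higher (2.38%; 6.68% of all genes). Csrp3, the muscle LIM protein, lay at 10.98, 10.45 and 10.60 in control and 9.55, 9.79 and 9.72 in 4NQO tongues, with a log2 difference of −0.99 (limma adjusted p = 0.0703). It lay below every control value in every 4NQO tongue, and control tongue 3 and 4NQO tongue 2 were not the lowest of their groups. Myom3, an M-band protein of intermediate-speed fibres, differed by −0.57 and Mybph, a relative of myosin-binding protein C, by −0.59. Tpm3, a tropomyosin of slow fibres and of non-muscle cells, was the higher one, at 9.71, 9.93 and 10.09 in control and 10.48, 10.50 and 10.36 in 4NQO tongues (log2 difference 0.54; limma adjusted p = 0.216).

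Genes of excitation-contraction coupling, which link the nerve signal to calcium release, held 24 measured members with a median of −0.31. Of these, 8 (33.3%; 3.74% of all genes) were lower and 0 higher (6.68% of all genes) at an unadjusted limma p under 0.05. Those with the smallest p were Jph2, a junctophilin that joins the membranes of the triad, at −0.60, Jsrp1 at −0.51, Musk, the kinase of the neuromuscular junction, at −0.64, and Trdn, the calcium release complex protein triadin, at −0.43. The 16 measured genes of the dystrophin complex and sarcolemma had a median of −0.27, with 3 lower (18.8%; 3.74% of all genes) and 0 higher (6.68% of all genes). The 3 were Lama2, a chain of muscle laminin, at −0.51, Cavin4, a caveolar protein of muscle, at −0.48, and Sgcd, a sarcoglycan that was dim, at −0.67, and sarcospan (Sspn) differed by −0.27. The 18 muscle energy enzymes had a median of −0.20, with all means lower (52.3% of all genes). Only 1 of the 18, Phka1 (a subunit of phosphorylase kinase, −0.71), was lower at an unadjusted limma p under 0.05. This share of 5.56% was close to the 3.74% of all genes. Gpd1, Fbp2 and Pygm, enzymes of glycerol phosphate, gluconeogenesis and glycogen breakdown, differed by −0.64, −0.28 and −0.25. In these muscle lists, too, control tongue 3 had the lowest median deviation of the control tongues and 4NQO tongue 2 the lowest of the 4NQO tongues.

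The 10 genes of satellite cells and regenerating muscle had a median of −0.09, and 7 lay below the median of all genes on every array. The 2 that were lower at an unadjusted limma p under 0.05 (20%; 3.74% of all genes), Mymx and Mymk, which fuse myoblasts, were among the dim ones, and Myod1, a myogenic transcription factor, was also dim, at 5.59, 5.87 and 5.49 in control and 6.03, 5.66 and 6.09 in 4NQO tongues. The 6 cardiac-restricted genes had a median of −0.05, and 5 were dim on every array. Nppb, a natriuretic peptide, lay at 3.70, 4.08 and 4.73 in control and 4.96, 4.68 and 6.65 in 4NQO tongues, a log2 difference of 1.26. The groups overlapped, and only 4NQO tongue 3 lay above the median of all genes. Nppa, which was dim on every array, differed by −0.47.

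Markers of other cell types differed beside the sarcomere genes, and their part in the differences was not tested. The 17 measured epithelial markers had a median log2 difference of 0.32, with 15 means higher. At an unadjusted limma p under 0.05, 4 were higher (23.5%; 6.68% of all genes) and 0 lower (3.74% of all genes). Sfn, a 14-3-3 protein of stratified epithelium, lay at 10.89, 10.54 and 10.62 in control and 11.80, 11.39 and 11.58 in 4NQO tongues (0.91; limma adjusted p = 0.0703). Krt6a, Krt14 and Cdh1, which encode keratins and an adhesion protein of epithelium, differed by 0.34, 0.32 and 0.58. The log2 of the summed signal of the epithelial markers ranged from 16.06 to 16.30 in control and from 16.20 to 16.42 in 4NQO tongues. That of the 39 sarcomere genes ranged from 17.34 to 17.69 in control and from 17.27 to 17.46 in 4NQO tongues, and both ranges overlapped between the groups. None of the epithelial markers was dim on every array. A higher signal from more epithelium and one from more RNA of these genes per cell cannot be told apart in these values.

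Of 11 measured leukocyte markers, 2 were higher (18.2%; 6.68% of all genes) and 1 lower (9.09%; 3.74% of all genes) at an unadjusted limma p under 0.05, with a median of 0.23. Itgax, an integrin of dendritic cells, lay at 5.20, 4.86 and 4.91 in control and 5.90, 6.12 and 6.38 in 4NQO tongues (1.15; limma adjusted p = 0.0703), and Ptprc (CD45) differed by 1.12. Cd79a, a B-cell receptor component, differed by −0.59. The summed log2 signal of leukocyte markers ranged from 10.07 to 10.87 in control and from 10.36 to 11.17 in 4NQO tongues, and 5 of the 11 were dim on every array, Cd79a among them. The 11 fibroblast and matrix genes had a median of −0.22, with all means lower (52.3% of all genes). Col1a2, a chain of type I collagen, was the 1 gene lower at an unadjusted limma p under 0.05 (−0.50; 9.09% of the list, 3.74% of all genes). The summed log2 signal of the fibroblast and matrix genes ranged from 14.20 to 14.65 in control and from 13.91 to 14.36 in 4NQO tongues.

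Smooth muscle, endothelial, Schwann cell, adipocyte and salivary markers held no gene with an unadjusted limma p under 0.05 (3.74% of all genes were lower and 6.68% higher). Their medians were −0.14 over 9, −0.11 over 10, −0.11 over 5, 0.25 over 6 and −0.28 over 10 measured genes. The summed log2 signal ranged from 11.95 to 12.54 in control and from 11.84 to 12.35 in 4NQO tongues for smooth muscle, and from 11.68 to 12.21 and from 11.58 to 11.91 for endothelium. For Schwann cell markers the ranges were 10.96 to 12.08 and 10.76 to 11.84, and for adipocyte markers 10.51 to 11.13 and 10.49 to 11.23. Salivary markers spread most, from 11.61 to 14.22 in control and from 11.19 to 14.91 in 4NQO tongues. The tongues rich in salivary signal, control tongue 2 and 4NQO tongue 3, were not those with the lowest sarcomere signal. Among the controls, tongue 3 had the highest summed signal of epithelial (16.30), fibroblast and matrix (14.65), leukocyte (10.87) and Schwann cell markers (12.08). It was not the highest in smooth muscle, endothelial, adipocyte and salivary markers. Among these lists, 4NQO tongue 2 was the highest of its group only in epithelial markers (16.42). Whether the mix of tissues had a part in the sarcomere signal of these arrays was not tested.

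**Figure D5:**
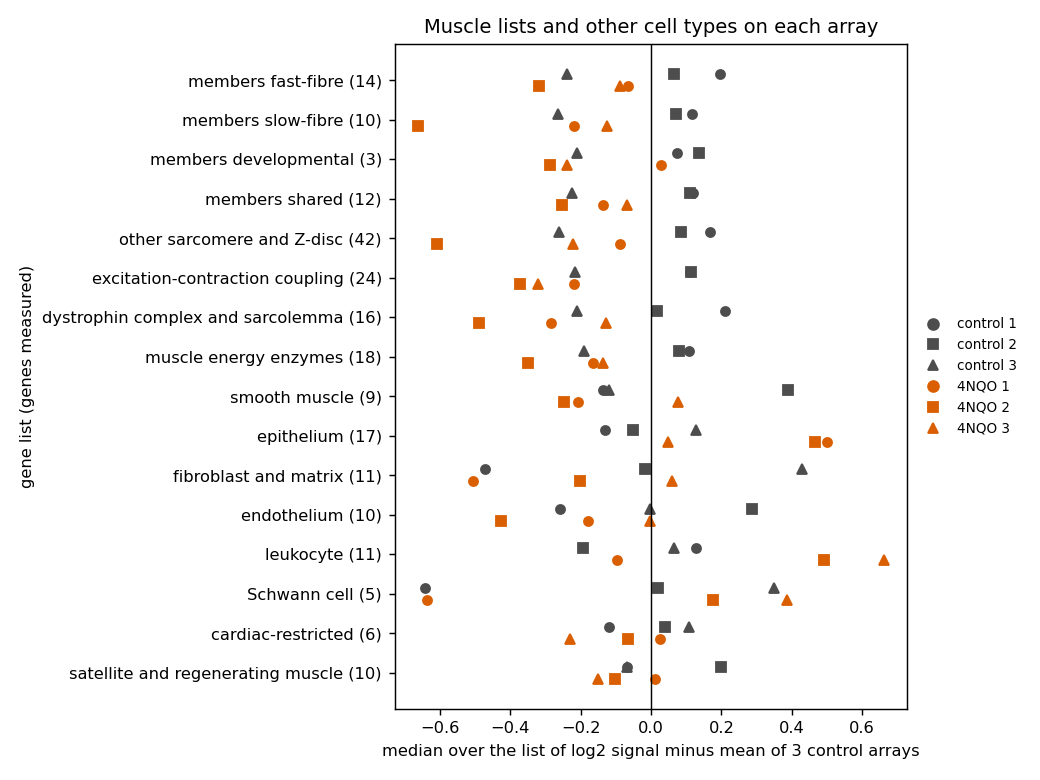
Median over each gene list (rows, number of genes measured in parentheses) of the log2 signal minus the gene's mean over the 3 control arrays, for each control (grey) and 4NQO tongue (orange), with shape by tongue number. In the 8 uppermost lists, all of muscle, control tongue 3 and 4NQO tongue 2 lie furthest left of their group, and the epithelial list lies at −0.13 to 0.13 in control and 0.05 to 0.50 in 4NQO tongues. Adipocyte and salivary lists, which spread wider, are not drawn.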

How the data were processed

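Total RNA of 6 adult C57BL/6J tongues was hybridized to Affymetrix mouse arrays. Each deposited value is the log2 signal of 1 probe set on 1 array, which the authors obtained in R with Bioconductor packages by a normalization that the sources used here do not name. The paper names a different deposited series for its arrays, so its processing and its use of SAM are taken to hold here without being stated for these values. Of 45101 probe sets, the platform annotation gave 1 gene to 34945, several to 932 and none to 9160, beside 64 array controls. The brightest probe set of each gene, by its mean over all 6 arrays, was kept. Entrez IDs were matched to a GRCm38.p6 gene table (18032 of 18193 found, 0 symbols changed), and promoters came from a RefSeq table of that assembly (all promoters listed for a gene were counted). Dim genes were kept.

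The test was that of limma 3.58.1 under R 4.3.3 (lmFit, eBayes with an intensity trend, two-sided), run over all 18193 genes and adjusted after Benjamini-Hochberg, at a threshold of 0.05. The script was tested on simulated data. The number of arrays limits the precision. The limma p-values set the group difference against the spread between tongues within the groups, moderated over all genes. The genes and gene lists were chosen with earlier results of these data known. All 39 genes are named, and of each other list up to 4 genes with the smallest p. Muscle lists covered the sarcomere and Z-disc, excitation-contraction coupling, the dystrophin complex, energy enzymes, and satellite and cardiac genes. The alternatives were quantile normalization, centring, leaving out dim genes, other probe sets, the variance model, a block for the replicate number, the Gapdh difference as a covariate, leaving out each array, and SAM over all 20 label permutations. Leaving out both arrays with the highest Gapdh difference, fitting each probe set and centring on the median of all probe sets were chosen after seeing the data.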

Additional observations from a re-analysis of the deposited data

How the results depend on the processing

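None of the 39 genes passed the limma adjusted threshold under any of the 17 alternatives, and the smallest adjusted p was 0.139, for Myoz2 with the Gapdh difference as a covariate. The count of genes lower at an unadjusted p under 0.05 was 6. It was 11 with the Gapdh covariate, where 5.56% of all genes were lower in place of 3.74%, and 3 with each array centred on the median of all probe sets (1.87%), and it ranged from 1 to 17 when each array was left out. It was 1 without control tongue 1 and without 4NQO tongue 2, 2 without control tongue 2, 3 without 4NQO tongue 1 and 17 without control tongue 3, where the share of all genes lay between 2.31% and 4.78%. The count higher was 0, and 1 (Tpm1) with probe sets without a suffix preferred. The labels do not say whether tongues of equal number were paired. Correlations of deviations between equal numbers were 0.29, −0.51 and 0.05, which cannot decide this with 3 tongues per group. With the replicate block 0 of the 39 passed and 4 were lower at an unadjusted limma p (2.94% of all genes). That fit called 2 genes higher and 0 lower over all genes after adjustment.

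Of 656 differences of single genes under the alternatives, 30 turned direction, in 13 genes. With the mean of all probe sets, Myh1 was at −0.011, Myl3 at 0.081 and Atp2a2 at 0.00081. With probe sets without a suffix, Myh1 was at −0.45 and Tpm1 at 0.48. Without both arrays of high Gapdh difference, Actn3 was at 0.13 and Myh3 at 0.016. With centring on all probe sets, Actn3 was at 0.016, Atp2a1 at 0.0055, Tpm2 at 0.055 and Neb at 0.034. Over the 6 fits that each left out 1 array, the ranges were −0.28 to 0.57 for Myh1, −1.58 to 0.97 for Myh2, −0.54 to 0.61 for Actn3, −1.12 to 0.55 for Mybpc2, −0.13 to 0.034 for Neb, −0.25 to 0.024 for Myl3, −0.13 to 0.048 for Tpm2, −0.15 to 0.00057 for Atp2a1, −0.44 to 0.055 for Myl2, −0.32 to 0.052 for Ldb3 and −0.24 to 0.044 for Myh3. The causes were not tested. Over all genes the calls were 23 higher and 1 lower, 0 and 0 without control tongue 2, 1 and 0 without 4NQO tongue 2, 63 and 2 with centring on all probe sets and 102 and 5 with the Gapdh covariate.

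With 1 array per tongue and 3 tongues per group, the number of arrays limits what single genes can show, and 6 of the 39 genes lie below the median of all genes on every array.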
